A study of Mus musculus with 8 samples.

Results

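The comparison set round spermatids without a wild-type Miwi (Piwil1) allele against round spermatids with one. All 8 of the 8 arrays of the series entered it, 4 without and 4 with, chosen by the genotype in their titles and not by any measured value. The arrays without a wild-type allele were 2 of MIWI -/- (only null alleles) and 2 of MIWI -/KI (a knock-in allele over a null one), and those with one were 2 of MIWI +/- (a null allele beside the wild-type one) and 2 of MIWI +/KI (a knock-in allele beside it). Each genotype without a wild-type allele was set against the genotype with the same second allele, and the value reported for a gene is the mean of those 2 differences of log2 intensity, here called the log2 difference. Negative values mean lower without a wild-type allele, and a signed value given beside a gene's name is its log2 difference.

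All mice were adult C57BL/6 and received no treatment, and no group in the series had 2 wild-type alleles. Round spermatids came from gradient fractions that were pooled within a preparation. What the knock-in allele changes and how many animals an array stands for are not stated in the labels, and whether each mutant allele is 1 founder line is not stated either. The title of the series names MIWI catalysis and LINE1 transposon silencing, and the design set the null and the knock-in allele each against the same allele beside a wild-type one.

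MIWI is a PIWI protein, which binds piRNAs, the small RNAs of animal germ cells, and can cut RNA that pairs with them. It is made in meiotic and early haploid male germ cells of the mouse, where it sits in the chromatoid body, and male mice that lack it are sterile with spermatogenesis stopping at the round spermatid stage. Round spermatids store many messages for later use, among them those of the protamines and transition proteins that replace histones when the nucleus condenses, and many such genes are switched on by the activator CREM through cAMP response elements.

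Array intensities had medians between 66.6 and 71.8, and correlations between log2 values of the arrays of 1 genotype lay between 0.970 and 0.995. Correlations between arrays without and arrays with a wild-type allele lay between 0.960 and 0.986, so the ranges overlap. On the first principal component (40.3% of the variance) lay the 4 arrays without a wild-type allele on one side and the 4 with one on the other. The second (25.8%) split the arrays of MIWI -/- and those of MIWI -/KI, with MIWI -/- replicate 2 and MIWI -/KI replicate 2 at its opposite ends. It also set the arrays of MIWI +/- (-33.6 and -23.3) apart from those of MIWI +/KI (17.5 and 18.9). Labelled tissue was checked against marker genes: all 30 measured markers of early round spermatids had a mean above the median intensity of the arrays. So did 38 of 42 markers of spermatocytes, 20 of 33 of spermatogonia and 24 of 36 of Sertoli cells. All 34 measured markers of elongating spermatids did too, so this check does not tell round from elongating spermatids.

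Promoter sequence was set beside the differences, because the rule that chose the arrays did not use it. The promoters of 4 genes are printed, each 300 bases from RefSeq on GRCm38.p6, with 250 bases before the start of the transcript and 50 after: those of the largest fall (Itpr3os), of a protamine gene that fell (Prm2), of the largest rise (Stambp) and of a leading rise that holds the core of a cAMP response element (Trh). Capitals mark TGACG or its complement CGTCA, the core of that element, CCAAT or ATTGG, and TATAAA or TTTATA, on either strand.
Itpr3os: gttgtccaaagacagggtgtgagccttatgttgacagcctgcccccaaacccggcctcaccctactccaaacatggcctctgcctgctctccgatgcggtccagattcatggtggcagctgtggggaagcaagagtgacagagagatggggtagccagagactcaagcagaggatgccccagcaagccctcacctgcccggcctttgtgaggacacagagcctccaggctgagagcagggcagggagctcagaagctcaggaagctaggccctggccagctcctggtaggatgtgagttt
Prm2: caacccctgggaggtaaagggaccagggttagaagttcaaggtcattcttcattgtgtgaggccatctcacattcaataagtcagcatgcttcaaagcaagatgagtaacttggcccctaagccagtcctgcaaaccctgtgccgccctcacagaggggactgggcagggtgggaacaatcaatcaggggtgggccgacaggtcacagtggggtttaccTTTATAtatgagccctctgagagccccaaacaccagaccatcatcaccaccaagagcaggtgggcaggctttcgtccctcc
Stambp: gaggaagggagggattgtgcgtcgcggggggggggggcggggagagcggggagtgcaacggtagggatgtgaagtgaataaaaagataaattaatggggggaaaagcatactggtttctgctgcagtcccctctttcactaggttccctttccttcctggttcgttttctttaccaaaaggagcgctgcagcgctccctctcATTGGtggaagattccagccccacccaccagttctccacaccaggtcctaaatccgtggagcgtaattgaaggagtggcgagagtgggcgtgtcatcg
Trh: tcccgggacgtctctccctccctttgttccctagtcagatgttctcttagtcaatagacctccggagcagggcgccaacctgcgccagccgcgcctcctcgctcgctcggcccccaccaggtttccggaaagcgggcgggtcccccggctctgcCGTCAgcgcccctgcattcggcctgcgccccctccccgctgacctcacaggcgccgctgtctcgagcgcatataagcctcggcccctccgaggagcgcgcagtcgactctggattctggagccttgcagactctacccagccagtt
The Itpr3os promoter lies at chr17:27101401-27101700, minus strand, that of Prm2 at chr16:10792056-10792355, minus strand, that of Stambp at chr6:83572455-83572754, minus strand and that of Trh at chr6:92244601-92244900, minus strand. In these 300 bases Itpr3os has 4 CpG dinucleotides and none of the marked letters, Prm2 has 3 and TTTATA, Stambp has 14 and ATTGG, and Trh has 28 and CGTCA. Trh was picked for that core, so the 4 promoters do not show how falls and rises differ. Of the leading genes with a promoter, 2 of 13 falls (Tlcd4 and Lexm) held the core. So did 2 of 9 rises (Trh and Tdrd1), against 27.98% of all genes.

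Piwil1, the targeted gene, was read first. Its intensities were 196 and 151 in MIWI -/- and 672 and 696 in MIWI -/KI, against 389 and 371 in MIWI +/- and 679.8 and 749 in MIWI +/KI. The 4 arrays without a wild-type allele overlapped the 4 with one: the MIWI -/- arrays were the lowest of the 8, and the MIWI -/KI arrays stood among those of MIWI +/KI and above those of MIWI +/-. Its log2 difference was -0.60 (SE 0.12, adjusted p = 0.0219), and it passed the threshold in 4 of 8 fits that left out 1 array; it did not pass without any 1 of the 4 arrays with a wild-type allele (adjusted p between 0.091 and 0.143). Its 2 differences were -1.14 beside the null allele and -0.06 beside the knock-in allele, of which the first passed (adjusted p = 0.00771) and the second did not (adjusted p = 0.888); the adjusted p of their difference was 0.142. The labels do not say which part of the gene is missing from the null allele, so where the probes lie relative to it is not known here.

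Of 19938 genes measured, 1647 passed an adjusted p of 0.05 in limma's moderated test (8.26%), with 864 higher (4.33%) and 783 lower (3.93%) without a wild-type allele. The falls were the larger changes: 299 genes fell by at least 2-fold (1.5% of all genes) and 75 by at least 4-fold (0.376%), against 150 (0.752%) and 6 (0.0301%) that rose as much. The median difference over all genes was -0.01 on the log2 scale. Intensities of the 4 arrays without and the 4 with a wild-type allele did not overlap in 3174 genes (15.9%), of which 1871 were higher (9.38%) and 1303 lower (6.54%), and in 1506 of the 1647 genes called. The deposited table has no detection calls, and in 136 of the falls and 109 of the rises the mean of the dimmer group was below 66.6, the lowest median of any array. Such a level is not shown to be above background, so no fold is given for these genes, and their differences of intensity may understate the change. The call depended on single arrays: 798, 775, 654 and 712 genes passed without MIWI +/- replicate 1, MIWI +/- replicate 2, MIWI +/KI replicate 1 and MIWI +/KI replicate 2, and 3298 without MIWI -/KI replicate 1.

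The 15 largest falls and 15 largest rises were picked among called genes whose 2 groups of 4 arrays did not overlap. That their groups lie apart was therefore set by the choice. The falls were led by Itpr3os, an antisense transcript at the gene of an inositol trisphosphate receptor. Its intensities were 43.3 and 55.6 in MIWI -/- and 46.2 and 48.8 in MIWI -/KI, against 848 and 927 in MIWI +/- and 1054 and 834 in MIWI +/KI, so that all 4 arrays without a wild-type allele were far below all 4 with one. It had a log2 difference of -4.24 (SE 0.13, adjusted p = 8.94e-06); the mean without a wild-type allele, 48.3, was below the medians of all arrays. The receptor gene itself, Itpr3, did not pass, at -0.0047. Bpifa3, of the family of lipid-binding BPI-fold proteins, had 73.0 and 74.0 in MIWI -/- and 117 and 111 in MIWI -/KI, against 1828 and 1376 in MIWI +/- and 809.5 and 728 in MIWI +/KI. The MIWI -/- arrays were the lowest and the MIWI -/KI arrays next, and the lowest array with a wild-type allele was several times higher. Bpifa3 had a log2 difference of -3.59 (SE 0.12), 12.1-fold lower without a wild-type allele, with an adjusted p of 9.93e-06.

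Klk1b5, a kallikrein-type serine protease, had 21.5 and 26.5 in MIWI -/- and 24.0 and 26.9 in MIWI -/KI, against 255 and 367 in MIWI +/- and 318 and 248 in MIWI +/KI. Without a wild-type allele it read a mean of 24.6, below the medians of all arrays and within the range of the 4985 dimmest genes (up to 45.5). It had a log2 difference of -3.57 (SE 0.16, adjusted p = 2.06e-05). Tlcd4, named for its TLC domain, had 70.7 and 76.8 in MIWI -/- and 116 and 146 in MIWI -/KI, against 1522 and 1481 in MIWI +/- and 901 and 845 in MIWI +/KI. Its MIWI +/- arrays were the highest, those of MIWI +/KI were intermediate and the 4 others lay well below, with a log2 difference of -3.55 (SE 0.12), 11.7-fold lower without a wild-type allele, with an adjusted p of 8.94e-06. Nudt16l2, of the Nudix hydrolase family, had 75.5 and 59.1 in MIWI -/- and 101 and 68.8 in MIWI -/KI, against 1572 and 1138 in MIWI +/- and 602 and 512 in MIWI +/KI. The groups did not overlap, and the gene had a log2 difference of -3.53 (SE 0.18), 11.5-fold lower without a wild-type allele, with an adjusted p of 3.88e-05. Acte1, an actin of the testis, had 72.6 and 72.5 in MIWI -/- and 125 and 153 in MIWI -/KI, against 1592 and 1796 in MIWI +/- and 783 and 705 in MIWI +/KI. Its 4 genotypes stood in the order MIWI -/-, MIWI -/KI, MIWI +/KI, MIWI +/-, with a log2 difference of -3.48 (SE 0.12), 11.2-fold lower without a wild-type allele, with an adjusted p of 8.94e-06.

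The other 9 of the 15 falls were, by that choice, lower on all 4 arrays without a wild-type allele than on any with one. Among them were Klk1b8, a further kallikrein (-3.23), Ubqlnl, a ubiquilin-like gene (-3.13), Fscn3, the testis form of the actin-bundling protein fascin (-3.09), and Car2, a carbonic anhydrase (-3.05). Dydc2 (-3.39), Lexm (-3.16), Tex37 (-3.13) and Noxred1 (-3.02) completed the group with Mical3, an enzyme that oxidises actin (-3.06). Klk1b8 and Lexm were below the array medians without a wild-type allele, at means of 47.8 and 61.3. Mical3 was read on its brightest cluster, and a dimmer cluster of the gene gave -0.25 (adjusted p = 0.447), so the 2 disagree. The rule skipped 4 uncharacterised loci among the falls and 2 among the rises. Klk1b5 and Klk1b8 belong to a family of near-identical genes whose probes may read each other, which was not tested.

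**Figure D1:**
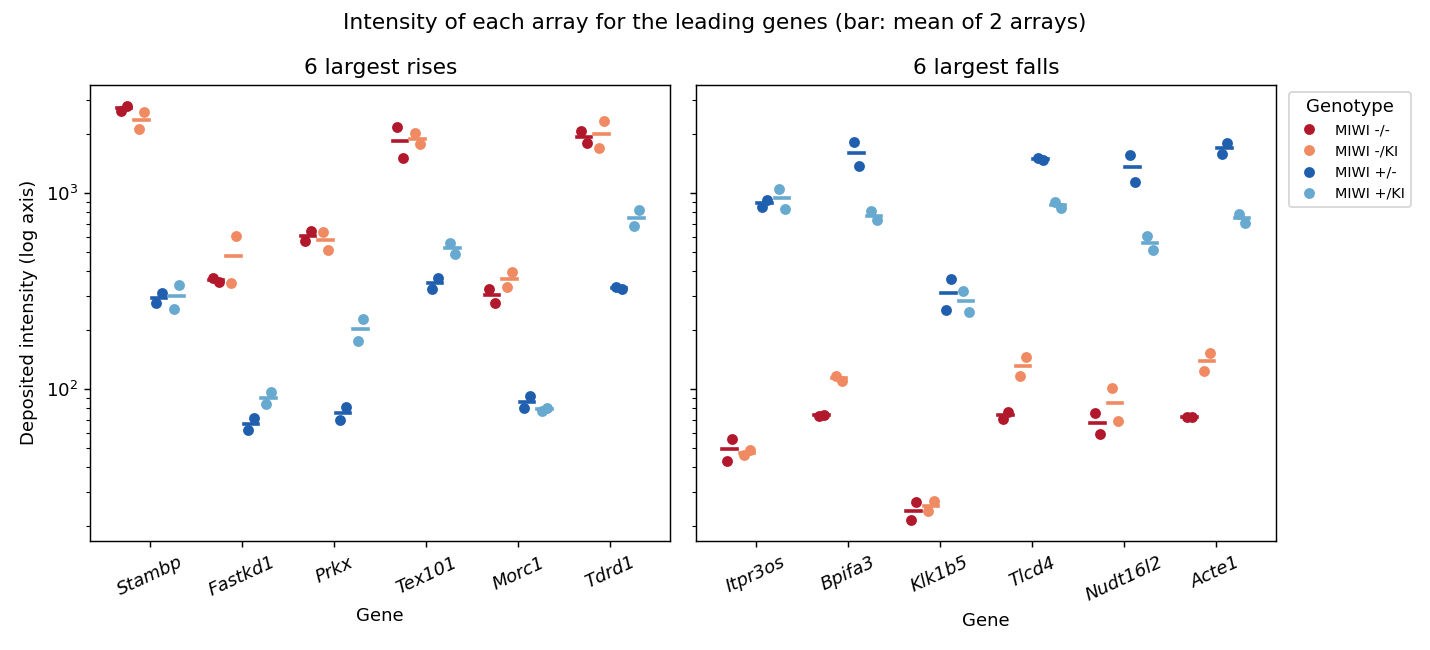
Intensity of each array on a log axis for the 6 largest rises and the 6 largest falls, by genotype, with a bar at the mean of 2 arrays. For all 12 genes the 4 arrays without a wild-type allele and the 4 with one do not overlap, as the choice of these genes required. The log2 difference was -4.24 for Itpr3os and 3.10 for Stambp. The low groups of Itpr3os and Klk1b5 are below the array medians.

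The rises were led by Stambp, an enzyme that removes ubiquitin from proteins at endosomes. Its intensities were 2627 and 2798 in MIWI -/- and 2118 and 2596 in MIWI -/KI, against 275 and 311 in MIWI +/- and 258 and 341 in MIWI +/KI. The 4 arrays without a wild-type allele lay at one high level, with a log2 difference of 3.10 (SE 0.13), 8.56-fold higher without a wild-type allele, with an adjusted p of 1.44e-05. Fastkd1, of a family of mitochondrial RNA-binding proteins, had 368 and 353 in MIWI -/- and 349 and 608 in MIWI -/KI, against 62.0 and 71.2 in MIWI +/- and 84.6 and 97.0 in MIWI +/KI. MIWI -/KI replicate 2 was the highest array and the 3 others without a wild-type allele were close together, with a log2 difference of 2.39 (SE 0.18), 5.25-fold higher without a wild-type allele, with an adjusted p of 0.000239. Prkx, an X-linked protein kinase related to protein kinase A, had 572 and 643 in MIWI -/- and 636 and 516 in MIWI -/KI, against 69.6 and 81.3 in MIWI +/- and 177 and 229 in MIWI +/KI. Its MIWI +/KI arrays stood between those of MIWI +/- and the rest, and Prkx had a log2 difference of 2.26 (SE 0.14), 4.78-fold higher without a wild-type allele, with an adjusted p of 8.77e-05.

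Tex101, a germ cell surface protein needed for sperm fertility, had 2166 and 1512 in MIWI -/- and 2021 and 1779 in MIWI -/KI, against 326 and 368 in MIWI +/- and 556 and 493 in MIWI +/KI. Every array without a wild-type allele was above every array with one, with a log2 difference of 2.12 (SE 0.14), 4.35-fold higher without a wild-type allele, with an adjusted p of 0.000102. Morc1, which represses retrotransposons in male germ cells, had 326 and 275 in MIWI -/- and 333 and 395 in MIWI -/KI, against 80.2 and 92.5 in MIWI +/- and 78.0 and 79.9 in MIWI +/KI. Its 2 differences were 1.80 beside the null allele and 2.20 beside the knock-in allele, and it had a log2 difference of 2.00 (SE 0.12), 4.00-fold higher without a wild-type allele, with an adjusted p of 8.71e-05. Tdrd1, a Tudor domain protein of germ granules, had 2067 and 1795 in MIWI -/- and 1699.5 and 2332 in MIWI -/KI, against 332 and 326 in MIWI +/- and 682 and 820.0 in MIWI +/KI. MIWI +/KI was above MIWI +/- here, and Tdrd1 had a log2 difference of 1.98 (SE 0.13), 3.95-fold higher without a wild-type allele, with an adjusted p of 0.000114.

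The other 9 of the 15 rises did not overlap between the groups either, again because the choice required it. They included Arhgap20, a GTPase-activating protein (1.93), Asprv1, a protease related to those of retroviruses (1.89), Trh, the precursor of thyrotropin-releasing hormone (1.89), and Tapbpl, which edits peptides on MHC class I (1.88). Man2a2, a Golgi mannosidase (1.85), Mtif2, a mitochondrial translation initiation factor (1.80), Lrrc61 (1.88), Zfp729b, a zinc finger gene (1.86), and Cldn34-ps (1.80), listed as protein coding in the annotation used, made up the rest. The mean of Zfp729b with a wild-type allele, 29.2, was below the array medians.

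The 2 differences averaged here share no array, though all arrays were normalised together. Over all genes they agreed in sign in 56.9% of cases (47.8% without MIWI -/- replicate 1 and 66.8% without MIWI -/- replicate 2), with a Pearson r of 0.487 and a Spearman rho of 0.235 across genes, given as a description because genes are not independent. Taken alone, MIWI -/- against MIWI +/- passed in 1222 genes (6.13%), 519 higher (2.6%) and 703 lower (3.53%), and MIWI -/KI against MIWI +/KI in 485 (2.43%), 227 higher (1.14%) and 258 lower (1.29%). Of these 355 passed in both, 29.1% of the first and 73.2% of the second, and 354 of them had 1 direction. Of the 1647 genes called in the mean, 1622 had the same sign in both differences, 354 passed in both and 515 passed in neither. These genes were called on the mean of the same 2 differences, so their agreement in sign was in part set by the choice. The size differed by direction: 637 of the 783 falls were larger beside the null allele, as were 471 of the 864 rises.

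No gene passed in the test of the difference between the 2 differences in limma, where the smallest adjusted p was 0.0711 and 2585 genes (12.97%) had an unadjusted p under 0.05. It gave 241 genes without MIWI -/- replicate 1, 48 without MIWI -/KI replicate 1 and 97 when dim clusters were left out. The 5 genes with the smallest p were Tex55 (-3.06 beside the null allele and -0.62 beside the knock-in allele), Gm136 (-4.62 beside the null allele and -2.18 beside the knock-in allele), Lrrc61 (2.99 beside the null allele and 0.76 beside the knock-in allele), Tex50 (-2.45 beside the null allele and -0.44 beside the knock-in allele) and Acte1 (-4.54 beside the null allele and -2.43 beside the knock-in allele). All 5 had 1 sign in both.

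**Figure D2:**
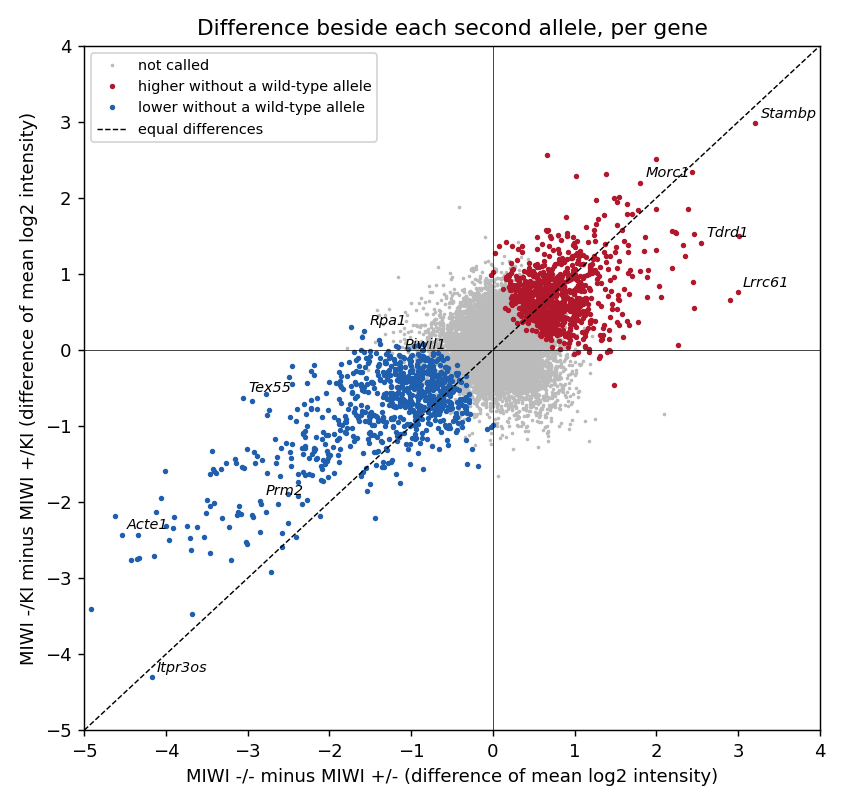
Log2 difference of MIWI -/KI against MIWI +/KI (vertical axis) and of MIWI -/- against MIWI +/- (horizontal axis) for each gene, with called genes coloured. Called falls lie mostly above the line of equal differences (637 of 783 were larger beside the null allele), and Itpr3os and Stambp lie close to it.

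Levels in the 4 genotypes put the falls in context. For the 783 lower genes the median intensity was 202 in MIWI -/- and 229 in MIWI -/KI, against 637 in MIWI +/- and 424 in MIWI +/KI. MIWI +/KI was below MIWI +/- in 694 of them (88.6%, against 45.2% of the 18291 genes not called), by a median of 0.43 on the log2 scale. For the 864 higher genes the medians were 337 in MIWI -/- and 365 in MIWI -/KI, against 180 in MIWI +/- and 218 in MIWI +/KI. MIWI +/KI was above MIWI +/- in 651 of the 864, against 10028 of the 18291 genes not called. This order is a description, with no test, since the genes were chosen on the same arrays.

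Of 27 measured genes of spermatid chromatin condensation 14 fell and 0 rose (51.9% against 3.93% of all genes), with a median of -0.68 beside -0.01 over all genes. The lists were chosen with earlier results of these data known, so their counts are a description, to be read against the 4.33% of all genes that rose and the 3.93% that fell. Among the 4985 brightest genes (265 and above) 8.61% rose and 8.85% fell, so bright lists are to be read against these shares as well. The transition proteins, which take the place of histones before the protamines do, and the protamines, which pack sperm DNA, were among the falls. Prm2 had 1011 and 927 in MIWI -/- and 1837 and 1233 in MIWI -/KI, against 7285 and 6648 in MIWI +/- and 5987 and 5897 in MIWI +/KI, with a log2 difference of -2.41 (SE 0.13), 5.33-fold lower without a wild-type allele, with an adjusted p of 4.02e-05. Tnp2 had 788 and 578 in MIWI -/- and 1558 and 1074 in MIWI -/KI, against 5928 and 5392 in MIWI +/- and 3834 and 3702 in MIWI +/KI, with a log2 difference of -2.30 (SE 0.14), 4.94-fold lower without a wild-type allele, with an adjusted p of 9.72e-05. Both showed 4 arrays below the other 4. Tnp1 and Prm1, named after their values were seen, had -2.49 (SE 0.19, adjusted p = 0.000236) and -2.14 (SE 0.22, adjusted p = 0.00105). Prm3 had -1.64 (SE 0.11, adjusted p = 0.000126), H2bl1, a testis histone, -1.67 (SE 0.10, adjusted p = 8.07e-05), and Gm614 -2.78 (SE 0.15, adjusted p = 4.05e-05). Members that did not pass included Chd5, a chromatin remodeller, at -0.37 and Hils1, a spermatid linker histone, at -0.46. Tssk6, a kinase of this list, is described with the kinases.

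Of 39 measured targets of CREM 20 fell and 0 rose (51.3% fell, against 3.93% of all genes), with a median of -0.63, and 17 to 24 fell in fits that left out 1 array. This list overlaps the chromatin list, and the 19 that did not pass included Pgk2, the testis phosphoglycerate kinase, at -0.42 and Ldhc, the sperm lactate dehydrogenase, at 0.06. Spata18, a mitochondrial protein, had -1.76 (SE 0.09, adjusted p = 3.98e-05). Txndc2, a sperm thioredoxin, had -1.25 (SE 0.08, adjusted p = 9.69e-05). Of 31 haploid transcription regulators 2 fell, Spz1 (-0.78, SE 0.09, adjusted p = 0.0022) and Fhl5, a co-activator of CREM (-0.63, SE 0.11, adjusted p = 0.011, with overlapping arrays), and 0 rose; Crem was at 0.06 and did not pass.

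Genes of the sperm tail were counted in 2 lists. Of 38 genes listed for the fibrous sheath and outer dense fibres, the structures around the tail axoneme, 13 fell and 2 rose, with a median of -0.27. That list is not confined to these structures and holds Spem1 and Oaz3. Spem1, which acts in spermatid cytoplasm removal, had -2.58 (SE 0.17, adjusted p = 0.000109), Oaz3, a polyamine regulator of spermatids, -1.17 (SE 0.09, adjusted p = 0.00026), and Akap4, the main protein of the fibrous sheath, -1.15 (SE 0.10, adjusted p = 0.000462). Of 43 genes listed for axonemal dyneins and radial spokes 13 rose and 0 fell (30.2% against 4.33% of all genes). In 40 of 43 the difference was above 0, with a median of 0.38. The second list also holds other axonemal genes, such as Cfap54. Dnah2, a dynein heavy chain, had 1068 and 1252 in MIWI -/- and 955 and 1014 in MIWI -/KI, against 478 and 456 in MIWI +/- and 835 and 888 in MIWI +/KI. Its groups did not overlap, and its log2 difference was 0.75 (SE 0.10, adjusted p = 0.0033). Cfap54, a part of the central apparatus, had 1.03 (SE 0.14, adjusted p = 0.00351), and Dnah7b, a further heavy chain, 0.89 (SE 0.14, adjusted p = 0.00722); a dimmer cluster of Dnah7b gave 0.05. The number that rose was 21 without MIWI -/KI replicate 1, 4 without MIWI +/- replicate 1, and 3 without each of MIWI +/- replicate 2, MIWI +/KI replicate 1 and MIWI +/KI replicate 2.

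Signalling genes went both ways. Of 42 testis kinases and signalling genes 10 fell and 3 rose, around a median of 0.02. Tssk6, a kinase needed for histone removal and sperm fertility, had 65.7 and 58.5 in MIWI -/- and 71.7 and 44.2 in MIWI -/KI, against 656 and 440.2 in MIWI +/- and 256 and 235 in MIWI +/KI, with a log2 difference of -2.62 (SE 0.19, adjusted p = 0.000208); its mean without a wild-type allele, 59.1, was below the array medians. Prkar2a, a regulatory subunit of protein kinase A, had -2.56 (SE 0.14, adjusted p = 4.55e-05), Pim1, a serine kinase, -1.81 (SE 0.14, adjusted p = 0.000243), and Tssk3 -1.16 (SE 0.10, adjusted p = 0.000531), while Prkx rose, as given above. Leaving out either MIWI +/KI array lowered the number that fell to 6. Of 34 genes of haploid energy metabolism 6 fell, among them Gapdhs, the sperm glyceraldehyde-3-phosphate dehydrogenase (-1.30, SE 0.13, adjusted p = 0.00114), and Atp1a4, the sperm sodium pump (-0.91, SE 0.09, adjusted p = 0.000858), and 1 rose, the transketolase-like gene Tktl2 (0.93, SE 0.12, adjusted p = 0.00324). The hexokinase Hk1 fell on its brightest cluster (-0.74, SE 0.08, adjusted p = 0.00122), and a further cluster gave -0.08 (adjusted p = 0.833). Of 18 sperm ion channel genes 2 fell and 1 rose, and of 42 acrosome and egg binding genes 3 rose and 2 fell. The acrosome rises numbered 5 without MIWI -/KI replicate 1 and 1 without MIWI -/- replicate 1 or any 1 array with a wild-type allele, and the falls 4 without MIWI -/KI replicate 1 and 1 without MIWI -/- replicate 2 or any 1 array with a wild-type allele. Actl9, an actin-like protein of the acrosome region, had -0.95 (SE 0.08, adjusted p = 0.000516).

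In the piRNA pathway list, 5 of 38 measured genes rose (13.2%, against 4.33% of all genes) and 3 fell (7.89%, against 3.93%). The median log2 difference was 0.14. The list is bright, with a median intensity of 428, and among the 4985 brightest genes (265 and above) 8.61% rose and 8.85% fell. This list counts Piwil1, the targeted gene, and Morc1, which is in the retrotransposon restriction list as well. The rises were Morc1 and Tdrd1, given above, Piwil2, the PIWI protein MILI (0.87, SE 0.10, adjusted p = 0.00161), Henmt1, which methylates piRNA ends (0.72, SE 0.11, adjusted p = 0.00688), and Tdrd9, a helicase with a Tudor domain (0.52, SE 0.09, adjusted p = 0.0146). The falls were Piwil1, Heatr9 (-0.67) and the kinesin Kif17 (-0.61), each with overlapping arrays; Heatr9 and Kif17 were named after their values were seen. Leaving out MIWI -/KI replicate 1 gave 12 rises and leaving out MIWI +/KI replicate 1 gave 3, and the number that fell was 0 without MIWI +/- replicate 2 and without either array of MIWI +/KI, and 1 without MIWI +/- replicate 1 or MIWI -/- replicate 1. Of 20 genes of other small RNA machinery 3 rose and 0 fell, Ago2 (0.85, SE 0.14, adjusted p = 0.0102; a dimmer cluster gave 0.23), Lin28a (0.65, SE 0.12, adjusted p = 0.0181) and Ago1 (0.46, SE 0.11, adjusted p = 0.0444), Argonaute proteins and an RNA-binding protein that blocks let-7. The count was 7 without MIWI -/KI replicate 1, 1 without MIWI +/- replicate 2 or MIWI -/- replicate 2, and 0 without MIWI +/- replicate 1 or either MIWI +/KI array. Of 272 miRNA genes with a cluster 0 were called.

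Retrotransposon-related genes were listed because the title concerns LINE1. Of 36 genes of retrotransposon restriction 4 rose and 0 fell: Morc1, Cbx5, a heterochromatin protein (0.94, SE 0.11, adjusted p = 0.00233), Pphln1, a part of the HUSH silencing complex (0.87, SE 0.11, adjusted p = 0.00314), and Adar, an RNA-editing enzyme (0.70, SE 0.12, adjusted p = 0.0115). The rises numbered 9 without MIWI -/KI replicate 1. Of 18 genes derived from retrotransposons Asprv1 rose, as above, and Peg10 fell (-0.76, SE 0.12, adjusted p = 0.00986). Transcripts of the elements themselves were not analysed here. Of 43 genes of interferon and nucleic acid sensing 1 passed, the chemokine Ccl5 (-0.91, SE 0.12, adjusted p = 0.00405), and the RNA-sensing kinase Eif2ak2 was at 0.86 and did not pass.

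Stress and protein turnover genes included large single changes. In the endoplasmic reticulum stress list of 42 genes, 6 rose and 3 fell, with Herpud1, which acts in protein degradation at the reticulum, at -2.62 (SE 0.13, adjusted p = 3.36e-05), Dnajc3, an inhibitor of the kinase PERK, at 1.43 (SE 0.09, adjusted p = 9.72e-05) and Edem1, a lectin of the degradation route, at 1.18 (SE 0.11, adjusted p = 0.000589). Herpud1 read 237 and 248 in MIWI -/- and 302 and 224 in MIWI -/KI, against 1924 and 1579 in MIWI +/- and 1396 and 1326 in MIWI +/KI, with all 4 arrays without a wild-type allele below the others. In the p53 list of 44 genes, 5 rose and 2 fell, with Gadd45b at 1.74 (SE 0.10, adjusted p = 8.08e-05), the checkpoint kinase Atr at 1.15 (SE 0.09, adjusted p = 0.00026) and Rpa1, a single-stranded DNA-binding protein, at -0.66 (SE 0.14, adjusted p = 0.0281); the 2 differences of Rpa1 were -1.57 beside the null allele and 0.25 beside the knock-in allele. The rises of the endoplasmic reticulum list numbered 3 without each array with a wild-type allele. Those of the p53 list numbered 12 without MIWI -/KI replicate 1, 3 without MIWI +/- replicate 1 or MIWI -/- replicate 2, and 2 without each of the 3 remaining arrays with a wild-type allele. Among 50 ubiquitin-specific proteases 5 fell and 2 rose, with Usp50 at -2.45 (SE 0.10, adjusted p = 1.64e-05) and Usp51, which deubiquitinates histones, at 1.73 (SE 0.16, adjusted p = 0.000735). The number of these that rose was 13 without MIWI -/KI replicate 1, and the number that fell was 3 without MIWI +/- replicate 2 or MIWI -/- replicate 1 and 2 without the other arrays with a wild-type allele. Of 44 proteasome subunits 7 rose and 0 fell (median 0.25), with medians of 0.03 beside the null allele and 0.44 beside the knock-in allele. Psmd1 had 0.69 (SE 0.09, adjusted p = 0.00366) and Psmb1 0.86 (SE 0.18, adjusted p = 0.0292). The proteasome count was 1 without each array of MIWI +/- and MIWI +/KI, 3 without MIWI -/- replicate 1, and 11 without MIWI -/- replicate 2 or MIWI -/KI replicate 1.

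Translation and housekeeping lists were closer to the background in their counts. Of 56 genes that store or translate germ cell messages 5 rose and 3 fell, with the RNA-binding protein Cpeb3 at -1.29 (SE 0.14, adjusted p = 0.00138) and the deadenylase Cnot8 at 0.87 (SE 0.11, adjusted p = 0.00304); the rises numbered 8 without MIWI -/KI replicate 1, 3 without MIWI -/- replicate 1 and 2 without each array with a wild-type allele. Of 58 cytosolic ribosomal proteins 3 rose and 1 fell, and of 71 respiratory chain genes 1 rose and 1 fell, with Uqcrc2 at 0.72 (SE 0.10, adjusted p = 0.00491) and Ndufa13 at -1.11 (SE 0.18, adjusted p = 0.00972); without MIWI -/- replicate 2 the respiratory rises numbered 9. The ribosomal rises numbered 5 without MIWI -/- replicate 2 and 1 without any 1 array with a wild-type allele, and the falls 3 without MIWI -/KI replicate 1, 2 without MIWI -/- replicate 1 and 0 without MIWI -/- replicate 2 or any 1 array with a wild-type allele. The median of the ribosomal list, 0.03, was of the other sign under 4 of 19 alternatives. Its medians were -0.17 beside the null allele and 0.26 beside the knock-in allele. The respiratory chain list had a median of 0.15, with 56 of 71 members above 0. Its medians were 0.02 beside the null allele and 0.27 beside the knock-in allele. Rpl10a (1.20, SE 0.15, adjusted p = 0.00275) and Rpl41 (-0.46, SE 0.09, adjusted p = 0.0251) each have several clusters of near-identical values, so which copy was read is uncertain.

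**Figure D3:**
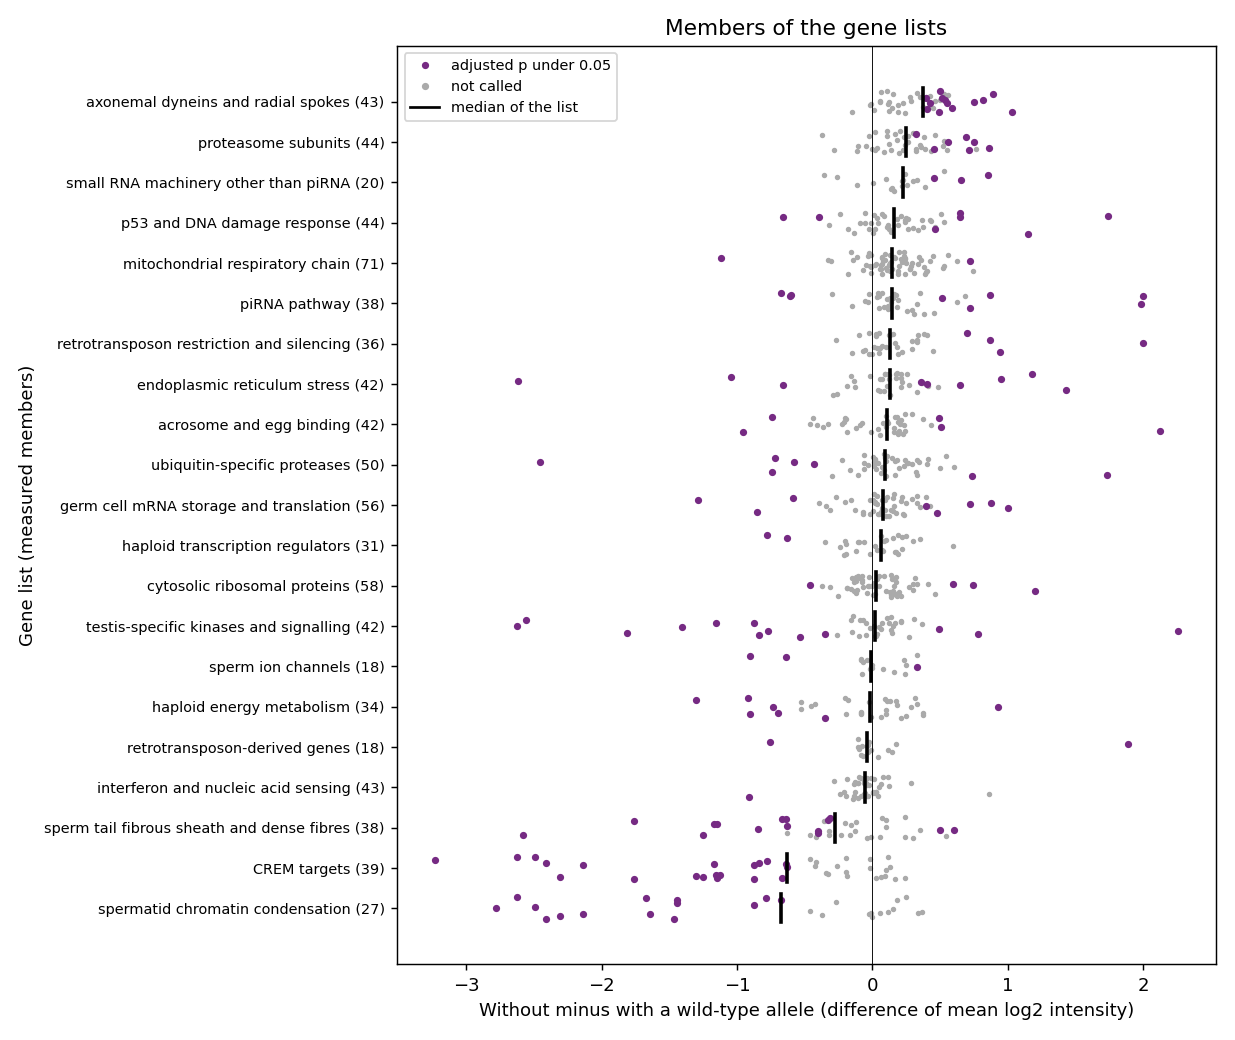
Log2 difference (without minus with a wild-type allele) of each measured member of 21 gene lists, with called members in purple and a black bar at the list's median. Chromatin condensation (-0.68) and CREM targets (-0.63) have the lowest medians and axonemal dyneins and radial spokes (0.38) the highest.

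Markers of other stages and cells were counted beside these lists, since the gradient fractions may hold them. In whole preparations, fewer cells of a type and less RNA per cell cannot be told apart. Of 34 markers of elongating spermatids, the next stage, 24 fell and 1 rose (median -1.15), and their summed intensity was 37160 to 41710 on the arrays without a wild-type allele, against 65180 to 94950 with one. Their part in the falls of the chromatin, CREM and tail lists was not tested, and these lists share members. The elongating spermatid list was chosen with earlier results of these data known. It holds Car2, Klk1b8 and Nudt16l2, which are among the 15 largest falls, so its count and sums are a description. For the 30 markers of early round spermatids 2 rose and 1 fell, with sums of 45140 to 49180 without a wild-type allele, against 42500 to 45240 with one. For 42 spermatocyte markers 4 rose and 1 fell, with sums of 28080 to 31700 without a wild-type allele, against 26430 to 28070 with one; Hmmr had 1.58 (SE 0.19, adjusted p = 0.0021) and Syce2 -1.15 (SE 0.15, adjusted p = 0.00351). The spermatocyte rises numbered 15 without MIWI -/KI replicate 1 and 2 without MIWI +/- replicate 2 or MIWI +/KI replicate 1. Their part in the rises was not tested.

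Among somatic markers, 5 of 36 Sertoli genes fell and 0 rose (median -0.26), with sums of 4545 to 5232 without a wild-type allele, against 5181 to 6418 with one. The Sertoli count was 14 without MIWI -/KI replicate 1, 6 without MIWI -/- replicate 1, 3 without MIWI -/KI replicate 2, 2 without MIWI -/- replicate 2, 1 without either MIWI +/- array or MIWI +/KI replicate 1, and 0 without MIWI +/KI replicate 2. Of 20 Leydig genes 0 passed, with Cyp11a1 at 0.66 (SE 0.20, adjusted p = 0.108). Of 33 spermatogonial genes 1 rose and 1 fell. Of 34 peritubular, vascular and stromal genes Actg2, an enteric smooth muscle actin, fell (-2.13, SE 0.12, adjusted p = 6.76e-05) and Acta2, the smooth muscle actin of the tubule wall, rose (0.96, SE 0.11, adjusted p = 0.00158). Actg2 had a mean of 1890 in MIWI +/-, while the median intensity of this list over all arrays was 81.1. Which cells its signal came from was not tested. Of 29 blood and macrophage genes 5 fell and 2 rose; the falls numbered 1 without MIWI +/- replicate 1 or MIWI +/KI replicate 2, 2 without MIWI +/KI replicate 1 and 3 without MIWI +/- replicate 2 or either MIWI -/- array. No marker was at 0 on these arrays, where every intensity is above 0. Their part in the results was not tested.

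**Figure D4:**
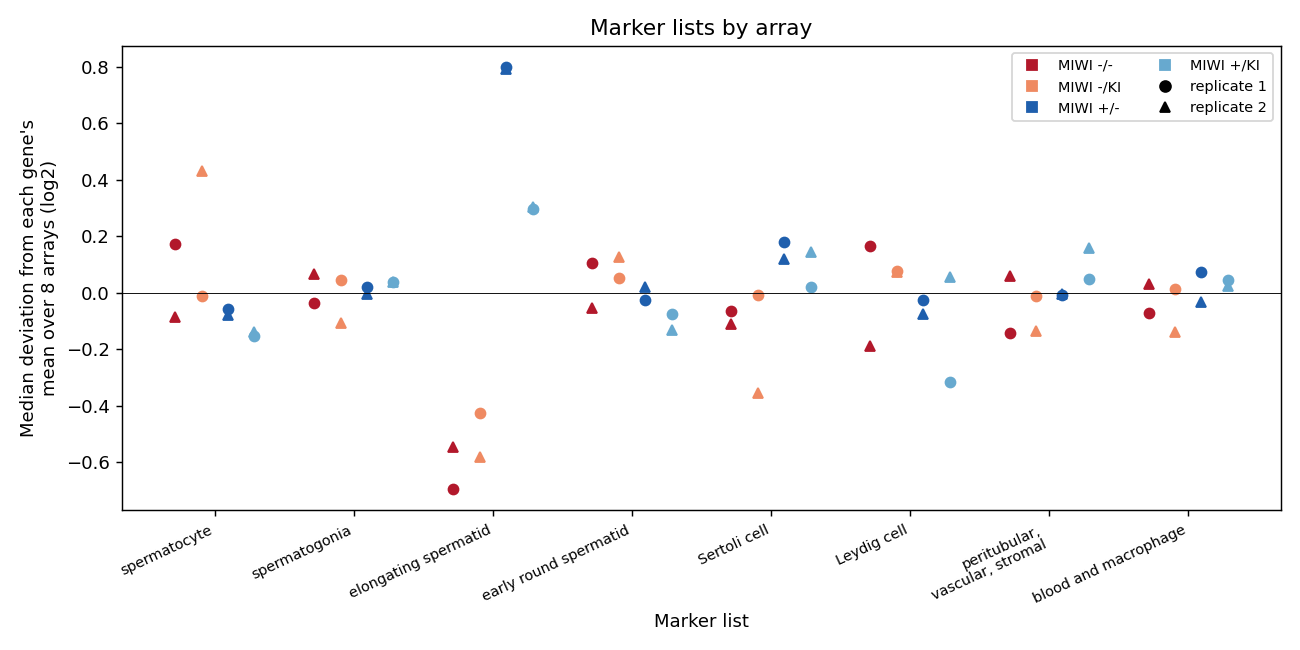
Median deviation of each marker list's members from their mean over the 8 arrays (log2, vertical axis), for each array, with genotype as colour and replicate as symbol. The elongating spermatid list separates the 4 arrays without a wild-type allele (sums of 37160 to 41710) from the 4 with one (65180 to 94950). That list was chosen with earlier results known and holds Car2, Klk1b8 and Nudt16l2, which are among the 15 largest falls.

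Neighbouring genes on a chromosome were compared through the order of genes in the RefSeq annotation of GRCm38.p6. Among 19833 adjacent pairs, both were higher in 70 (0.353%), both lower in 50 (0.252%) and 1 of each in 66 (0.333%), where the product of the shares of single genes is 0.189%, 0.155% and 0.342%. The following pairs were named after their values were seen. Tnp2, Prm3, Prm2 and Prm1 are adjacent on chromosome 16 and all fell. Tex101 lies beside Lypd10 (1.50, SE 0.15, adjusted p = 0.000858) and Lypd11 (1.17, SE 0.13, adjusted p = 0.00165), which rose too. Stambp, the largest rise, lies beside Actg2, which fell, and Klk1b5 beside Klk1b24, which rose (1.13, SE 0.15, adjusted p = 0.0038).

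Called genes were found on every chromosome with at least 50 genes measured and were more frequent among bright genes. Rises were 3.25% to 6.01% of the genes of a chromosome, and falls 2.55% to 5.11%. The X chromosome had 4.33% higher and 4.87% lower. Among the 4985 dimmest genes 0.502% rose and 0.481% fell, against 8.61% and 8.85% among the 4985 brightest. Of 1228 uncharacterised loci 43 rose (3.50%, against 4.33% of all genes) and 72 fell (5.86%, against 3.93%).

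Promoter composition is described with no test, over the 15614 genes with a promoter. A gene was counted where any of its promoters held the letters, and the mean number of promoters was 1.22 per gene that rose and 1.39 per gene that fell, against 1.23 over all genes. TGACG was in 41.7% of the genes that rose, 30.3% of those that fell, 32.4% of those that fell by at least 2-fold and 22.0% of those that fell by at least 4-fold, against 27.98% of all genes. The full element TGACGTCA was in 3.65% of rises, 4.67% of falls, 4.56% of falls of at least 2-fold and 0 of 59 falls of at least 4-fold, against 2.72% of all genes. CCAAT was in 45.4% of rises and 41.2% of falls, against 41.7% of all genes. TATAAA was in 8.84% of rises and 10.3% of falls, against 13.6% of all genes. The median number of CpG dinucleotides was 21 among rises, 12 among falls, 9 among falls of at least 2-fold and 4 among the falls of at least 4-fold, against 15 over all genes. Motifs found in these windows on either strand are letter matches, and TGACGTCA contains TGACG.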

How the data were processed

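The deposited values are linear array intensities, 1 per transcript cluster, made by the authors with RMA of an unstated version, per the submitters' processing notes. RMA normalises arrays together by quantiles, so shifts common to most genes are not visible. Log2 of each deposited intensity was taken, and 8 cells of 8 clusters over 100 times the median of their row's other arrays were treated as missing. Of 35512 clusters, 21789 had 1 symbol in the platform annotation, 1621 several and 12102 none. Symbols were matched to a RefSeq table of GRCm38.p6 for 21698 of them, and 0 changed. Each of 19938 genes was read on its cluster of highest mean; 999 had more than 1 cluster.

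A linear model in limma 3.58.1 (R 4.3.3) gave 1 mean per genotype over all 8 arrays, with an intensity trend in the variance prior (residual degrees of freedom 4, prior 3.976). All tests were two-sided. P-values were adjusted by Benjamini-Hochberg across the 35512 clusters, and 0.05 was the threshold. Errors are moderated standard errors from limma (median 0.121), and the number of arrays limits precision. The arrays are labelled biological replicates, and nothing says how many animals each holds, so the p-values rest on the variation among preparations only. Deviations of arrays with 1 replicate number correlated between -0.258 and 0.297. The labels do not say that the numbers pair samples, and with 2 arrays per genotype these correlations cannot decide it. The genes and lists were chosen with earlier results of these data known. Named were the 15 largest rises and falls among called genes with arrays that did not overlap, without uncharacterised loci, then up to 5 members per list with the smallest p (the member with the smallest p where none passed), the 5 genes with the smallest p for the difference between differences, and Piwil1. From the lists, 2 symbols that matched an unintended gene through an alias were removed after the data were seen. On simulated data, the model called 39 of 67 clusters changed by 2-fold, 64 of 67 by 4-fold and 65 of 66 by 8-fold, with 5 false calls. Alternatives are given in the closing section.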

Additional observations from a re-analysis of the deposited data

Results flagged for a closer look

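Among the 4 arrays of a group, 10 values stood farther from the nearest other array than Dixon's limit allows, in 127 named genes and 254 groups; chance alone flags about 1 in 20 groups. MIWI -/KI replicate 2 was the array apart in 5 of them: Fastkd1 at 608 (other arrays without a wild-type allele 349 to 368), Xrn1 at 686 (387 to 410), Uqcrc2 at 1410 (1150 to 1180), Psmd1 at 1160 (1030 to 1050) and Mcmdc2 at 224 (125 to 133). MIWI -/- replicate 2 was apart for Pphln1 at 696 (864 to 899) and Cyp11a1 at 49.6 (91.5 to 98.1), and MIWI -/- replicate 1 for Atp1a4 at 1610 (2020 to 2100). With a wild-type allele, MIWI +/- replicate 2 was apart for Morc1 at 92.5 (78.0 to 80.2) and MIWI +/- replicate 1 for Golga3 at 664 (697 to 701).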

How the results depend on the processing

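The count of 1647 genes called without against with a wild-type allele stayed within 1.5 times under 10 alternatives, from 1263 to 2041. A term for the side of the second principal component, chosen after the data were seen, gave 2486, which held all 1647. Leaving out 1 array gave 654 to 3298. Quantile normalization repeated gave 725 higher and 848 lower. No reported call changed sign under any of the 19 alternatives. The genes changed in MIWI -/- against MIWI +/- (1222) numbered 375 to 2043 without 1 array. The genes changed in MIWI -/KI against MIWI +/KI (485) numbered 252 with array weights, 857 without dim clusters and 42 to 2664 without 1 array. The difference between differences (0) gave 97 without dim clusters and 0 to 241 without 1 array. The same-sign share (56.9%) was 47.8% to 66.8% without 1 array, and the 131 members called in the function lists were 63 to 210. Of the 127 named genes 82 passed in every fit without 1 array, among them the 30 leading ones. Of 30 counts of 1 to 3 called members in a list, 24 moved by over 1.5 times without some array. The cause of these moves was not tested. The median of 6 of the 29 lists changed sign under some alternative. The fit with the replicate block gave 1536 (800 higher, 736 lower); samples share only a number, so nothing is drawn from it. The alternative with 2 groups of 4 arrays gives no value for the separate differences. Where 1 array is left out, the lone array of its genotype is assumed to vary like the others.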
